A study of Homo sapiens with 6 samples.

Results

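The HOX genes encode homeodomain transcription factors that lie in 4 clusters, HOXA, HOXB, HOXC and HOXD, and they were followed here in MEC-1 cells, an established line of chronic lymphocytic leukemia B cells, after knockdown of UGT2B17. UGT2B17 is a glucuronosyltransferase that inactivates androgens by coupling them to glucuronic acid. Members were probe sets annotated to exactly 1 symbol made of HOXA, HOXB, HOXC or HOXD and a number, with the brightest probe set kept per symbol. There were 27 such genes among the 18404 genes tested: 1 of the 11 HOXA symbols in the RefSeq gene table, all 10 of HOXB, 7 of 9 of HOXC and all 9 of HOXD. HOXA was represented by HOXA2 alone, and the other 10 HOXA genes were not analysed here. HOXC4 and HOXC6 share 1 probe set and are therefore not members. Each of the 27 genes had a single probe set, and no filter on dim signal was applied, so all 27 were tested.

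All 6 arrays came from MEC-1 cells that had received an shRNA by lentivirus: 3 arrays from cells with an shRNA against UGT2B17 and 3 from cells with a scrambled shRNA. Total RNA was labelled with biotin by a whole-transcript kit, 1 array per sample. The labels do not say how many targeting constructs were used or whether replicates were grown separately. A p-value here therefore covers the spread among these arrays, which may be technical, and lower UGT2B17, effects of the hairpin on other transcripts and differences between cultures cannot be told apart. Values are deposited RMA values on a log2 scale, and a log2 fold change is the knockdown mean minus the scrambled mean. The number of arrays limits the precision.

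In vertebrates, HOX genes set the identity of body segments along the head-to-tail axis. Within a cluster, gene order follows the order of expression along that axis, and the number in a gene's name gives its paralog group, which it shares with genes at the same position in the other clusters. HOX proteins bind DNA together with homeodomain partners of the PBX and MEIS families. MLL/trithorax complexes keep active HOX genes on and Polycomb complexes keep silent ones off. In blood, HOXA and HOXB genes are known mainly from stem and progenitor cells, with expression that declines as cells mature.

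The arrays correlated with each other at r of 0.991 to 0.996 over all probe sets, and scrambled replicate 3 stood furthest from its group. Scrambled replicate 1 had a slightly higher mean r with the knockdown arrays (0.9946) than with the other scrambled arrays (0.9943). UGT2B17 was read on the dim probe set annotated to it alone, whose mean exceeded that of only 8.0% of the deposited probe sets. It read 3.19, 3.27 and 3.17 with the knockdown and 3.95, 3.69 and 3.91 with scrambled shRNA. The log2 fold change was −0.64 ± 0.08 (SE, limma, adjusted p = 0.00654). B cell markers were bright, with means over the 6 arrays from 8.98 to 12.3 log2 units for 8 measured genes, including MS4A1 (CD20) and CD79A. None of the 8 passed the test, with BANK1 at 0.31 ± 0.09 (adjusted p = 0.113) and PAX5 at −0.21 ± 0.07 (adjusted p = 0.162).

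In the HOXB cluster, 3 of 10 genes rose with the knockdown: HOXB9 by 1.86-fold, HOXB3 by 1.38-fold and HOXB7 by 1.28-fold. No HOX gene fell (limma over all genes, Benjamini-Hochberg adjusted p under 0.05). The other 24 members, 7 of them in HOXB, did not pass. The 3 calls make 11.1% of the 27 members, where 3.61% of all 18404 genes were called, 1.92% higher and 1.69% lower. Of the members, 4 had an unadjusted p under 0.05, all 4 of them higher. Over all genes that share was 18.2%, with 8.70% higher and 9.45% lower. The members were taken as a family with earlier results of these data known, so no test of the family as a whole was made.

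HOXB9, a posterior gene active in the thoracic region of the embryo, read 7.64, 7.63 and 7.30 log2 units with the knockdown. With scrambled shRNA it read 6.70, 6.60 and 6.58. All 3 knockdown arrays lay above all 3 scrambled arrays, with 0.61 log2 units between the lowest knockdown and the highest scrambled value. The means were 7.53 ± 0.19 and 6.63 ± 0.06 (SD, n = 3 each), a log2 fold change of 0.90 ± 0.10 (SE; 95% interval 0.68 to 1.12; limma, adjusted p = 0.00347). By log2 fold change it ranked 19 of 18404 genes. A two-sided exact permutation test over the 6 arrays gave p = 0.1, its smallest possible value in this design. Any gene whose groups do not overlap gets this value, so it adds nothing to the separation of the arrays. HOXB9 remained called without each of the 6 arrays in turn, with log2 fold changes from 0.84 to 1.01 and adjusted p from 0.00616 to 0.0262.

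HOXB7, a gene of the trunk that is expressed at high level in several carcinomas, read 6.84, 6.90 and 6.98 with the knockdown and 6.56, 6.57 and 6.51 with scrambled shRNA. The groups did not overlap and lay 0.27 log2 units apart at their nearest arrays. The log2 fold change was 0.36 ± 0.07 (SE; 95% interval 0.21 to 0.51; adjusted p = 0.0226). HOXB3, which acts in the hindbrain and in blood progenitors, read 6.93, 6.97 and 6.97 against 6.65, 6.52 and 6.32. Its 3 knockdown arrays were close together, while the scrambled arrays spread more, with replicate 3 lowest. The log2 fold change was 0.46 ± 0.09 (SE; 95% interval 0.26 to 0.66; adjusted p = 0.0267).

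The calls of HOXB7 and HOXB3 were lost under settings that kept that of HOXB9. Without knockdown replicate 1, 2 or 3 or scrambled replicate 2, the adjusted p was 0.0665, 0.101, 0.109 and 0.0813 for HOXB7, and 0.0994, 0.115, 0.107 and 0.0885 for HOXB3, while the log2 fold changes stayed between 0.32 and 0.39 and between 0.45 and 0.47. Without scrambled replicate 3, HOXB3 had 0.37 and kept its call (adjusted p = 0.0229). With all 32321 deposited probe sets tested, the adjusted p was 0.0760 for HOXB7 and 0.0988 for HOXB3, and HOXB9 kept its call at 0.0314.

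**Figure D1:**
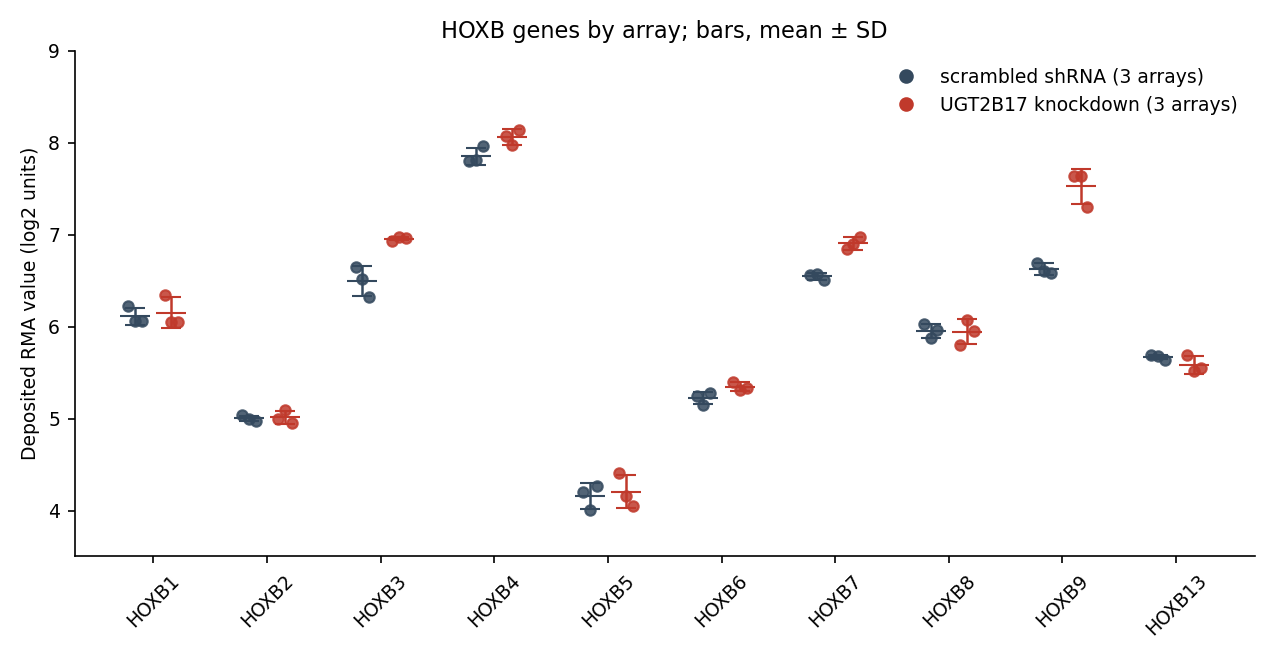
Deposited RMA values (log2 units) of the 10 HOXB genes in cluster order, with 1 point per array and the mean ± SD of 3 arrays per group. The knockdown points lie above all scrambled points for HOXB3, HOXB4, HOXB6, HOXB7 and HOXB9, with the widest gap, 0.61 log2 units, for HOXB9.

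HOXB4, known for expanding blood stem cells when overexpressed, and HOXB6, also expressed in blood progenitors, had groups that did not overlap but did not pass the test. HOXB4 read 8.07, 7.97 and 8.14 with the knockdown and 7.80, 7.81 and 7.96 with scrambled shRNA, so that the highest scrambled and the lowest knockdown array were 0.01 log2 units apart. Its log2 fold change was 0.21 ± 0.08 (SE; 95% interval 0.03 to 0.38; adjusted p = 0.197). HOXB6 had a log2 fold change of 0.12 ± 0.07 (adjusted p = 0.373). Over the family, 5 of 27 members had knockdown arrays above all scrambled arrays and 0 had them below. Over all genes the groups did not overlap for 24.8%, with the knockdown above for 11.8% and below for 13.1%.

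The other HOXB genes lay near 0. HOXB8, whose overexpression blocks the maturation of myeloid progenitors, lies between HOXB9 and HOXB7 and read 5.80, 6.07 and 5.95 with the knockdown against 6.03, 5.88 and 5.97. Its groups overlapped, with a log2 fold change of −0.01 ± 0.08 (95% interval −0.20 to 0.18). HOXB5, expressed in a subset of blood stem cells, had 0.05 ± 0.11, and the hindbrain genes HOXB2 and HOXB1 had 0.01 ± 0.07 and 0.04 ± 0.09. HOXB13, the most posterior gene of the cluster, which is active in the prostate, had −0.08 ± 0.07. The median log2 fold change was 0.09 over the 10 HOXB genes and 0.04 over the 7 that did not pass, against −0.002 over all genes.

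In the RefSeq gene table the span of HOXB3 overlaps those of HOXB4, MIR10A, HOXB-AS1, HOXB-AS2 and HOXBLINC, and the whole-transcript probe sets of HOXB3 and HOXB4 may read shared transcripts. HOXB-AS1 also overlaps HOXB2. HOXB-AS3, a long non-coding RNA, overlaps HOXB5 and HOXB6. No overlapping gene is listed for HOXB7, HOXB8, HOXB9 or HOXB13. Whether the probe sets lie in the overlapping stretches was not tested.

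**Figure D2:**
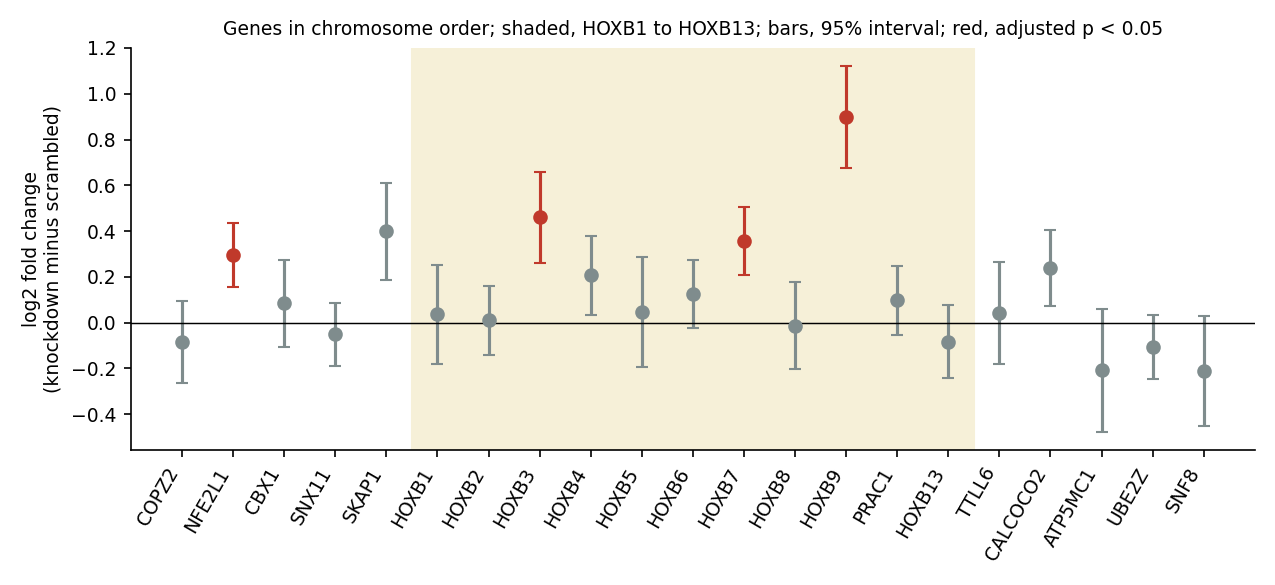
Log2 fold changes (knockdown minus scrambled) with 95% intervals for the HOXB genes, PRAC1 and 5 measured protein-coding genes on each side, in chromosome order. HOXB3, HOXB7, HOXB9 and the flanking gene NFE2L1 passed at an adjusted p under 0.05, and HOXB8, between HOXB7 and HOXB9, lies at −0.01.

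Genes beside the HOXB cluster on chromosome 17 were read in the same fit. Of 10 flanking protein-coding genes, 5 on each side, NFE2L1, a transcription factor that induces proteasome genes, rose by 0.29 ± 0.06 log2 units (SE; adjusted p = 0.0370). SKAP1, an adaptor of immune cell adhesion and the nearest measured gene beside HOXB1, read 9.33, 9.27 and 9.27 with the knockdown and 9.02, 8.97 and 8.68 with scrambled shRNA. Its groups did not overlap, but its difference of 0.40 ± 0.09 did not pass (adjusted p = 0.0543). PRAC1, which lies between HOXB9 and HOXB13, had 0.10 ± 0.07 (adjusted p = 0.493). Over the flanks of all 4 clusters, 1 of 40 genes passed, NFE2L1, which is 2.5% of them, beside 1.92% of all genes called higher and 3.61% called either way. Of the 40, 11 had an unadjusted limma p under 0.05, beside 18.2% of all genes. All knockdown arrays lay above all scrambled arrays for 11 of the 40 and below for 5, beside 11.8% and 13.1% of all genes. The median over the 40 was 0.05. Of the 10 HOXB flanking genes, 5 lay above 0 and 5 below, with a median of −0.005.

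HOXC and HOXD genes did not pass in either direction, and none of the 17 members outside HOXB had an unadjusted p under 0.05 in limma. HOXC8, the brightest HOXC member, acts in the thoracic region and read 5.89, 5.68 and 5.70 with the knockdown against 5.77, 5.77 and 5.76 with scrambled shRNA. The groups overlapped, with a log2 fold change of −0.01 ± 0.07 (SE; adjusted p = 0.962). HOXC9 and HOXC10, which pattern the trunk and the hindlimb, had the lowest log2 fold changes of the family, at −0.16 ± 0.08 (adjusted p = 0.313) and −0.19 ± 0.10 (adjusted p = 0.337). The other HOXC members were HOXC5 at 0.07 ± 0.17, HOXC11 at 0.03 ± 0.08, HOXC12 at −0.002 ± 0.070 and HOXC13, which acts in hair and nails, at −0.08 ± 0.07. Of the 7 HOXC genes 2 lay above 0, and their median was −0.01. The probe set shared by HOXC6 and HOXC4 had 0.07 ± 0.08 (limma over all probe sets, adjusted p = 0.786).

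In HOXD, the brightest member HOXD1 read 7.11, 6.997 and 6.92 with the knockdown and 7.01, 7.03 and 6.99 with scrambled shRNA. Its groups overlapped, with a log2 fold change of −0.003 ± 0.069 (adjusted p = 0.990). HOXD8 had the highest log2 fold change outside HOXB, 0.27 ± 0.12 (95% interval −0.005 to 0.54; adjusted p = 0.284). It read 5.96, 5.86 and 5.72 against 5.32, 5.80 and 5.62, so the groups overlapped, and scrambled replicate 1 was the lowest array. The limb genes HOXD9, HOXD10, HOXD11, HOXD12 and HOXD13 ran from −0.11 to 0.09, and HOXD3 and HOXD4 had 0.02 ± 0.08 and −0.10 ± 0.11. The median over the 9 HOXD genes was 0.02, and its sign changed when single arrays were left out (−0.051 to 0.082), when arrays were centred on their medians (−0.00016) and with array weights (−0.020).

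HOXA2, which patterns the second pharyngeal arch and is the only HOXA member, read 5.36, 5.17 and 5.003 with the knockdown against 5.20, 5.30 and 5.24. The groups overlapped, with a log2 fold change of −0.07 ± 0.09 (adjusted p = 0.768). Whether the rest of HOXA moved was not analysed here.

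**Figure D3:**
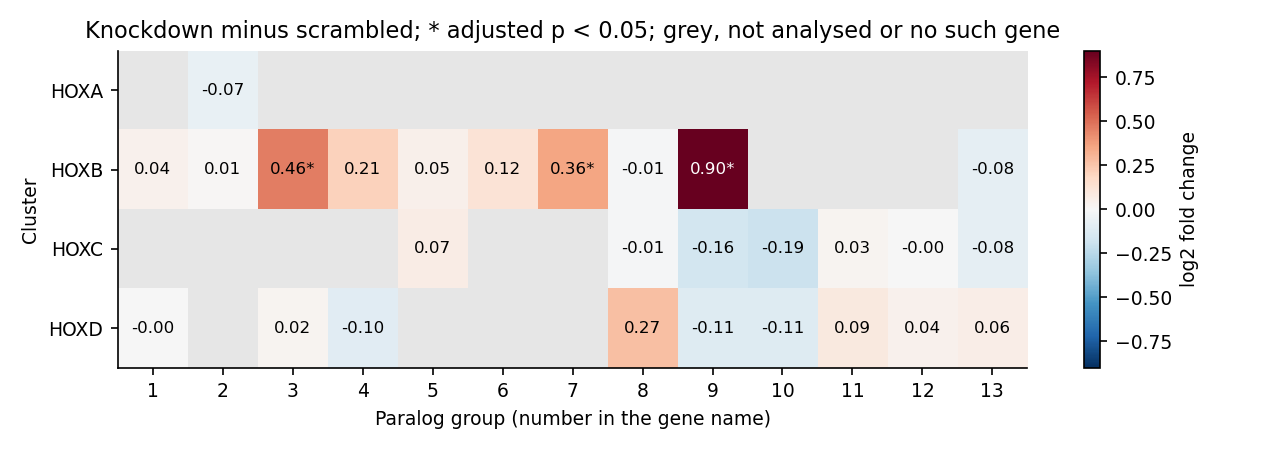
Log2 fold changes (knockdown minus scrambled) by cluster and paralog group, coloured from −0.9 (blue) to 0.9 (red), with an asterisk for an adjusted p under 0.05. The 3 asterisks are HOXB3, HOXB7 and HOXB9, while the measured HOXC and HOXD paralogs of groups 3 and 9 lie between −0.16 and 0.02.

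By position in the cluster, 1 gene rose in each of the anterior, central and posterior parts. Paralog groups 1 to 3 held 6 members with a median log2 fold change of 0.02 and HOXB3 as the call. Groups 4 to 8 held 9 members with a median of 0.07 and HOXB7 as the call, and groups 9 to 13 held 12 members with a median of −0.04 and HOXB9 as the call. Paralogs of the called genes in the other clusters did not pass: HOXD3 had 0.02, HOXC9 −0.16 and HOXD9 −0.11, and for group 7 HOXB7 was the only member. Differences between clusters or positions were not tested. Over all 27 members the median was 0.02 (−0.00016 with arrays centred on their medians), with 15 above 0 and 12 below, against −0.002 over all genes.

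Most members had low signal. Of the 27, only HOXB4 and HOXB9 had a mean over the 6 arrays above the median of all 18404 genes, and the members' means ran from 4.18 for HOXB5 to 7.96 for HOXB4. RMA compresses fold changes near background, and probe sets differ in brightness, so these levels do not rank the genes by transcript amount. Fold changes of the dim members may be understated, and a value near 0 there does not show that a gene was unchanged.

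No measured non-coding RNA gene of the clusters passed. Of 24 listed, 6 were measured on probe sets naming 1 gene, and 0 passed in limma, with 0 at an unadjusted p under 0.05. HOXB-AS3 read −0.13 ± 0.10 log2 units (SE; adjusted p = 0.546). MIR196A1, which lies between HOXB9 and HOXB13, had −0.08 ± 0.10 (adjusted p = 0.736), and MIR10A, which lies between HOXB4 and HOXB5 and within the span of HOXB3, had 0.02. MIR10B, MIR196A2 and HOXA-AS2 had −0.04, −0.04 and 0.07. A whole-transcript array reads the locus RNA, and mature miRNAs are not measured by it. MicroRNAs of these families pair with HOX transcripts, and miR-196 is known to cleave that of HOXB8. The mature sequences are shown because they come from the miRNA genes measured within the HOXB cluster. They are from RefSeq (GRCh38.p14), 5′ to 3′, with the seed, bases 2 to 8, in capitals. The first maps to chr17:48579904-48579926 and the second to chr17:48632532-48632553, both on the minus strand. MIR196A2 in the HOXC cluster gives the same mature sequence as MIR196A1.
hsa-miR-10a-5p: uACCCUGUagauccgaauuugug
hsa-miR-196a-5p: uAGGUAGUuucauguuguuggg

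Among the partners of HOX proteins, 2 of 9 measured TALE homeodomain genes rose and 0 fell, beside 1.92% of all genes called higher and 1.69% called lower. MEIS3 read 7.15, 6.98 and 7.05 with the knockdown and 6.72, 6.74 and 6.74 with scrambled shRNA, a log2 fold change of 0.33 ± 0.07 (SE; adjusted p = 0.0347). PBX4 read 8.79, 8.84 and 8.83 against 8.51, 8.54 and 8.32, a log2 fold change of 0.36 ± 0.08 (adjusted p = 0.0370). In both genes all knockdown arrays lay above all scrambled arrays. This held for 4 of the 9, with 0 below, beside 11.8% and 13.1% of all genes. In limma, 3 of the 9 had an unadjusted p under 0.05, beside 18.2% of all genes. Whether the calls of MEIS3 and PBX4 hold with an array left out was not tested. The list had 7 of 9 members above 0 and a median of 0.08, where the median of all genes was −0.002.

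PBX proteins bind with HOX proteins at composite sites of the form TGATNNAT, and MEIS proteins at CTGTCA. Promoters, from 250 bases before to 50 after the gene start, were at hand for 11 of the 27 members in RefSeq (GRCh38.p14). HOXB1 was the only HOXB member among them, so no called gene was included. The others were HOXA2, HOXC5 and all HOXD members but HOXD9. On either strand, TGATNNAT was found in 3 of the 11 (HOXB1, HOXA2 and HOXD11) and in 7.40% of all 35116 promoters of the same length. CTGTCA was found in 2 of 11 (HOXA2 and HOXD4) and in 15.8% of all. The CCAAT motif was found in 9 of 11 (all but HOXD8 and HOXD11) and in 34.6% of all. The palindromic E-box CACGTG was found in 5 of 11, all of them HOXD genes (HOXD1, HOXD3, HOXD10, HOXD11 and HOXD13), and in 7.26% of all. The TATA box TATAAA was found in 1 of 11 (HOXD13) and in 11.5% of all. The 11 promoters had a median of 23 CpG dinucleotides, against 14 over all promoters. A match is a description of the letters in this window, not of binding. The promoters of HOXB1, whose self-activation through PBX-HOX sites is a textbook case, and of HOXA2 are shown because both hold the composite motif. They are given 5′ to 3′ on the gene's strand, minus in both, with matches to TGATNNAT and CTGTCA on either strand in capitals, and these matches overlap no other motif searched.
HOXB1, chr17:48530962-48531261: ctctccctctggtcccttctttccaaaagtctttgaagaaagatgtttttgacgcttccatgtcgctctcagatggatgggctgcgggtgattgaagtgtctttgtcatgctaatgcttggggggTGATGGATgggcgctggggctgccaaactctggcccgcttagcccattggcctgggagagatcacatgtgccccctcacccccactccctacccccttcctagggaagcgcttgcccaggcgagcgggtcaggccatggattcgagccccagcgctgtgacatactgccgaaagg
HOXA2, chr7:27102634-27102933: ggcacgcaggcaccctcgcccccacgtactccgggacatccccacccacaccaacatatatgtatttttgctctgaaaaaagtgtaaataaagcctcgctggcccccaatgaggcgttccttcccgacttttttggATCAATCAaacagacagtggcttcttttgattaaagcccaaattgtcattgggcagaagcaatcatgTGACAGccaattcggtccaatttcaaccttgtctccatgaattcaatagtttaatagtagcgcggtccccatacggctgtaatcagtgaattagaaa
In these arrays HOXB1 had a log2 fold change of 0.04 ± 0.09 and HOXA2 of −0.07 ± 0.09, neither of which passed.

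Of 29 measured Polycomb genes, 2 rose, 1 fell and 26 did not pass, beside 3.61% of all genes called either way. RYBP, a subunit of variant Polycomb repressive complexes of the first type, rose by 0.38 ± 0.06 log2 units (SE; adjusted p = 0.0136). ASXL2, a partner of the histone H2A deubiquitinase BAP1, rose by 0.37 ± 0.06 (adjusted p = 0.0153). MTF2, which recruits the H3K27 methyltransferase complex to CpG islands, read 9.57, 9.68 and 9.69 with the knockdown against 10.00, 10.00 and 10.10 and fell by 0.39 (SE 0.07; adjusted p = 0.0194). The groups of these 3 genes did not overlap. Over the 29 genes, the knockdown arrays lay above all scrambled arrays for 8 and below for 6, beside 11.8% and 13.1% of all genes. In limma, 9 of the 29 had an unadjusted p under 0.05, beside 18.2% of all genes. The median of the list was 0.01.

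Of 23 MLL/trithorax genes, 0 passed in limma and 3 had an unadjusted p under 0.05, beside 18.2% of all genes. MLLT3, a reader of histone acylation in elongation complexes, had 0.22 ± 0.08 (adjusted p = 0.158) and WDR5, a core subunit of the MLL complexes, −0.29 ± 0.11 (adjusted p = 0.193), with a list median of −0.05. Of 6 ParaHox genes, sister genes of the HOX clusters that include the CDX activators of HOX transcription, 0 passed and 0 had an unadjusted p under 0.05. GSX2 had 0.19 ± 0.09 (adjusted p = 0.337) and CDX1 −0.06 ± 0.06 (adjusted p = 0.717). Of 14 genes of retinoic acid metabolism and receptors, a pathway that switches on HOX genes in the embryo, 0 passed and 1 had an unadjusted p under 0.05, beside the same 18.2% of all genes. STRA6, a retinol transporter, had 0.18 ± 0.07 (adjusted p = 0.191) and RXRB 0.24 ± 0.11 (adjusted p = 0.286).

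**Figure D4:**
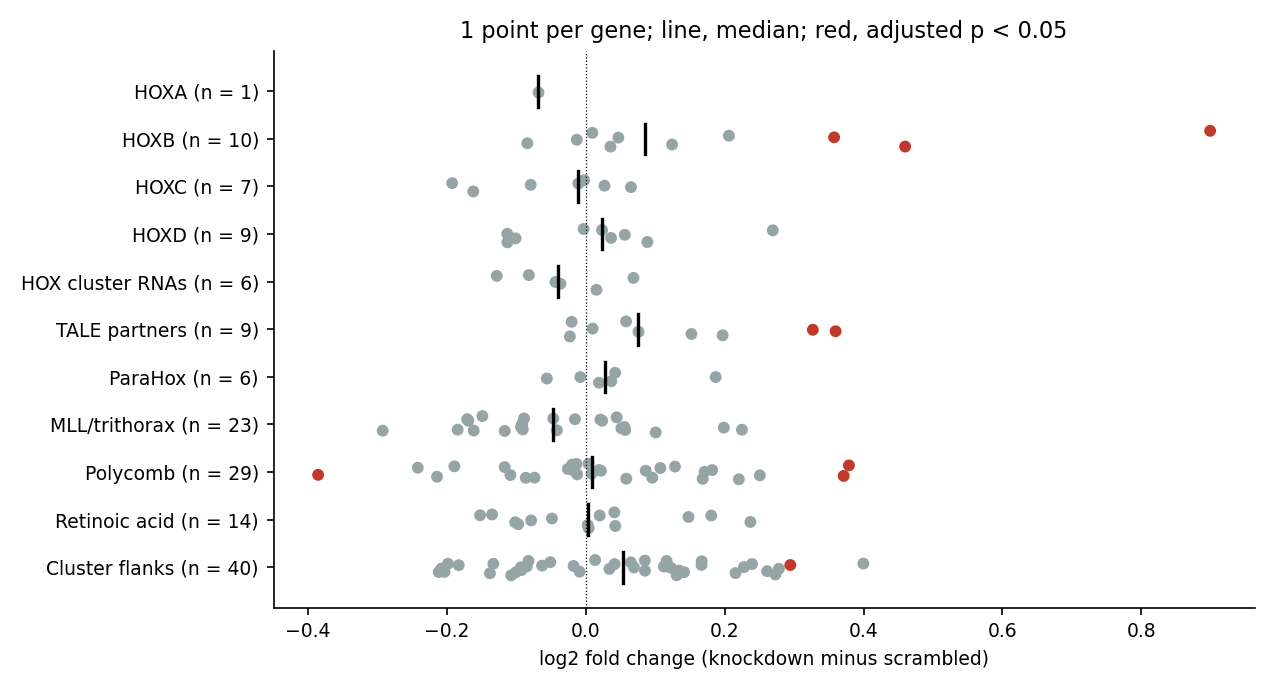
Log2 fold changes (knockdown minus scrambled) of single genes, 1 point each, for the HOX clusters, their non-coding RNAs, partners, regulators and flanking genes, with the median of each list as a line and calls at an adjusted p under 0.05 in red. HOXB9 is the rightmost point at 0.90, and the HOXC and HOXD rows hold no red point.

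Markers of other cell types were read for the same arrays. Over all genes, 18.2% had an unadjusted p under 0.05 and 3.61% passed. Of 10 fibroblast and stromal markers, 0 rose and 1 fell: FBN1, fibrillin-1, by 0.59 (SE 0.07; adjusted p = 0.00454). Their summed log2 values ran from 52.4 to 52.5 in the knockdown and from 52.7 to 53.2 with scrambled shRNA, without overlap. Without FBN1 the ranges overlapped, from 46.9 to 47.1 in the knockdown and from 46.6 to 47.1 with scrambled shRNA. Of the 10 markers 5 lay above 0, and their median log2 fold change was −0.01. Their part in the HOX results was not tested. Of 10 monocyte and granulocyte markers, 0 passed, with ITGAM at −0.60 ± 0.15 (adjusted p = 0.0659) and CD14 at −0.19 ± 0.07 (adjusted p = 0.225), and with 2 unadjusted p under 0.05 in limma. Their summed values did not overlap either and ran from 55.6 to 55.9 in the knockdown and from 56.1 to 57.2 with scrambled shRNA. Without ITGAM they overlapped, from 49.0 to 49.4 against 49.4 to 49.96. Of 10 T and NK cell markers, 0 passed and 2 had an unadjusted p under 0.05, NKG7 at 0.25 ± 0.06 (adjusted p = 0.0752) and KLRF1 at −0.66 ± 0.22 (adjusted p = 0.163). Of 8 erythroid and platelet markers, 0 passed and 1 had an unadjusted p under 0.05, with GP9 at 0.22 ± 0.07 (adjusted p = 0.151) and ITGA2B at 0.07 ± 0.07 (adjusted p = 0.646). In bulk RNA, a change in the share of cells and a change in RNA per cell cannot be told apart.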

How the data were processed

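Gene expression was measured on 6 arrays, grouped by the labels. The deposited log2 values, from 2.20 to 14.3 on 32321 probe sets, were made with RMA (background correction, quantile normalisation, probe summary), per the submitters' processing notes; for its version and the array library: not given in the sources used here. They were used untransformed. Names of probe sets came from the platform annotation (19158 with 1 symbol, 1388 with several, 11775 not listed and left unnamed), and the brightest probe set per symbol over the 6 arrays left 18404 genes. Gene names, order and overlaps are from RefSeq (GRCh38.p14); the genome build of the probe sets is not stated in any of these sources, and the coordinates printed belong to the RefSeq sequences shown; none are given for probe sets or measured genes.

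Knockdown and scrambled arrays were compared in R 4.3.3 with limma 3.58.1 (lmFit, eBayes, two-sided, no covariate), adjusted by Benjamini-Hochberg over all genes at a threshold of 0.05. The script was tested on simulated data. SDs are over 3 arrays. The members and gene lists were chosen with earlier results of these data known. The text names, by rule, each HOX gene, giving array values for those with an unadjusted p under 0.05 and for the brightest per cluster; array values of HOXB8 and HOXD8 were added after their values were seen. In the other lists it names each gene that passed, or else the 2 with the smallest unadjusted p, and it names the flanking genes that passed; MS4A1, CD79A, SKAP1 and PRAC1, the remaining cluster RNAs values of other genes not called, and marker sums without FBN1 or ITGAM were added after their values were seen. Alternatives were another quantile normalisation, centring on array medians, brighter genes only, a trend or robust prior, array weights, means over probe sets, all probe sets, a replicate block, leaving out each array, and an adjusted p under 0.1.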

Additional observations from a re-analysis of the deposited data

How the results depend on the processing

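HOXB9 was called higher under each alternative run. Whether the calls of single genes other than HOX genes and UGT2B17 held under the alternatives was not tested. The count of HOX genes called higher, 3, became 1 (HOXB9) with all deposited probe sets tested, 1 with only genes above the median level, where 2 members were tested, and 1 with the replicate block; it became 5 with array weights (HOXB4 and HOXB6 added), which also called 2 lower (HOXC9 and HOXD4) and 3511 genes in all. Scrambled replicate 2 had a weight of 6.12, against 0.55 and 0.25 for scrambled replicates 1 and 3. The scrambled mean in that setting therefore rested mostly on 1 array. The count of HOX genes called higher ran from 1 to 3 and the count lower stayed at 0 as each array was left out. Over all genes, 354 were higher and 311 lower; these counts became 86 and 79 with all deposited probe sets, 189 and 178 with the replicate block, 1802 and 1709 with array weights, and 612 and 595 at an adjusted p under 0.1, and ran from 75 to 391 and from 77 to 368 as each array was left out. Leaving out an array removes a degree of freedom, and testing all probe sets adds 13917 tests, mostly of unnamed probe sets. With the replicate block, HOXB7 had an adjusted p of 0.0704 and HOXB3 of 0.0519; same-numbered arrays did not deviate together (correlations of −0.05, −0.07 and −0.03), so the numbers were not taken as pairs.

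The median log2 fold change of HOX genes, 0.02, ran from −0.046 to 0.072 as each array was left out. It was 0.55 with only genes above the median level, where HOXB4 and HOXB9 alone were left. That of HOXB, 0.09, was 0.16 with array weights and ran from 0.049 to 0.127. With only genes above the median level it was 0.55, from the same 2 genes. That of paralog groups 4 to 8, 0.07, was 0.13 with array weights and ran from −0.0047 to 0.151. With only genes above the median level it was 0.21, where HOXB4 alone was left. That of groups 9 to 13 was 0.90 with only genes above the median level, where HOXB9 alone was left. As each array was left out, the median of HOXD ran from −0.051 to 0.082, of HOXC from −0.055 to −0.0055, of groups 1 to 3 from −0.044 to 0.042 and of groups 9 to 13 from −0.079 to −0.016; that of HOXD, 0.02, was −0.00016 with arrays centred on their medians and −0.020 with array weights. Centring also turned the median over all HOX genes to −0.00016 and that of groups 1 to 3 to −0.0071. Among members near 0, leaving out an array turned the sign of HOXA2 (range −0.161 to 0.0197, positive without knockdown replicate 3), HOXC8 (range −0.0758 to 0.0265, positive without knockdown replicate 2 or 3) and HOXD1 (range −0.0512 to 0.0394, positive without knockdown replicate 2 or 3 or scrambled replicate 2). Neither scaling moved the median over all genes by over 0.1.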
